A study of Arabidopsis thaliana with 4 samples.

Results

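The genes described here encode the proteins of the cytosolic ribosome of Arabidopsis thaliana, measured in the lower and upper flanks of inflorescence stems laid on their side. They were chosen by the description that the array design gives each probe: it had to name a 40S ribosomal protein, a 60S ribosomal protein or a structural constituent of the ribosome, and to mention neither chloroplasts, plastids nor mitochondria. A locus was represented by its brightest probe. The rule found 215 loci of 20219 on the array, and 209 of them passed the filter on dim spots and were tested, 116 of the large (60S) subunit and 93 of the small (40S) subunit. Of the tested genes, 204 are described as a numbered subunit protein, 5 of these fused to ubiquitin, and 5 as a related protein. The numbered proteins form 77 families of paralogs, and 74 families had at least 2 tested genes.

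The groups were lower flanks and upper flanks at 30 min, and lower flanks and upper flanks at 10 min, of ecotype Col plants under gravi-stimulation. The plants had been laid horizontally in dim light without direction, the stem tips were removed and the segments below were cut lengthwise by hand, so each sample holds all the cell types of its side of the stem, and no stem that stayed upright was measured. Both flanks of a time were hybridized to the same 2-colour array, with 2 arrays per time. The lower flank carried Cy5 on replicate 1 and Cy3 on replicate 2. Although the labels speak of biological replicates, they name no separate plants and say that every RNA was labelled with both dyes, so p-values may cover only technical spread.

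A cytosolic ribosome is built from a small subunit, which reads the messenger RNA, and a large subunit, which joins the amino acids. Plants carry several genes for most of its proteins, and these genes are strongly expressed where tissue grows, under the control of sugar supply and of the TOR kinase. Stems laid horizontally bend upward because the lower side elongates more.

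All 209 tested genes were well above background in all 8 spots (both flanks of 4 arrays), and none was saturated. Outlier spots were left out: 20 of these genes lost the spot on replicate 1 at 30 min, and 6, 5 and 2 lost it on the other arrays in the order replicate 2 at 30 min, replicate 1 and replicate 2 at 10 min. Values on all arrays were left for 187 genes. RPL26A, RPL28C, RPL34A, RPL38A and RPL90A/C had no value at 30 min, so 204 genes had a flank ratio at 30 min. RPL26A had none at 10 min either, so 208 genes had a flank ratio at 10 min. It is counted among the 209 tested genes but entered no comparison. Paralogs have near-identical coding sequences in many families, and how far a probe also binds the transcripts of a paralog was not tested. A flank ratio is the log2 of the lower flank's signal over that of the upper flank on the same array, and each ± is a standard error from limma. A gene is called higher or lower when limma's p, after Benjamini-Hochberg adjustment across every gene in the test, is under 0.05.

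At 30 min the fitted ratios of nearly all cytosolic ribosomal protein genes lay slightly above 0, toward the lower flank. The fitted ratio was above 0 for 195 of 204 genes, with a median of 0.120 (1.09-fold), against -0.00062 over all genes tested. The middle 50% of the genes lay between 0.092 and 0.142. On each array the same shift appeared. Over the 187 genes with all values, the median ratio was 0.123 on replicate 1, where the lower flank carried Cy5, and 0.114 on replicate 2, where it carried Cy3, while the medians of all other genes were 0.0031 and -0.0041. The ratio was above 0 for 179 and 170 of the 187 genes on these arrays.

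**Figure D1:**
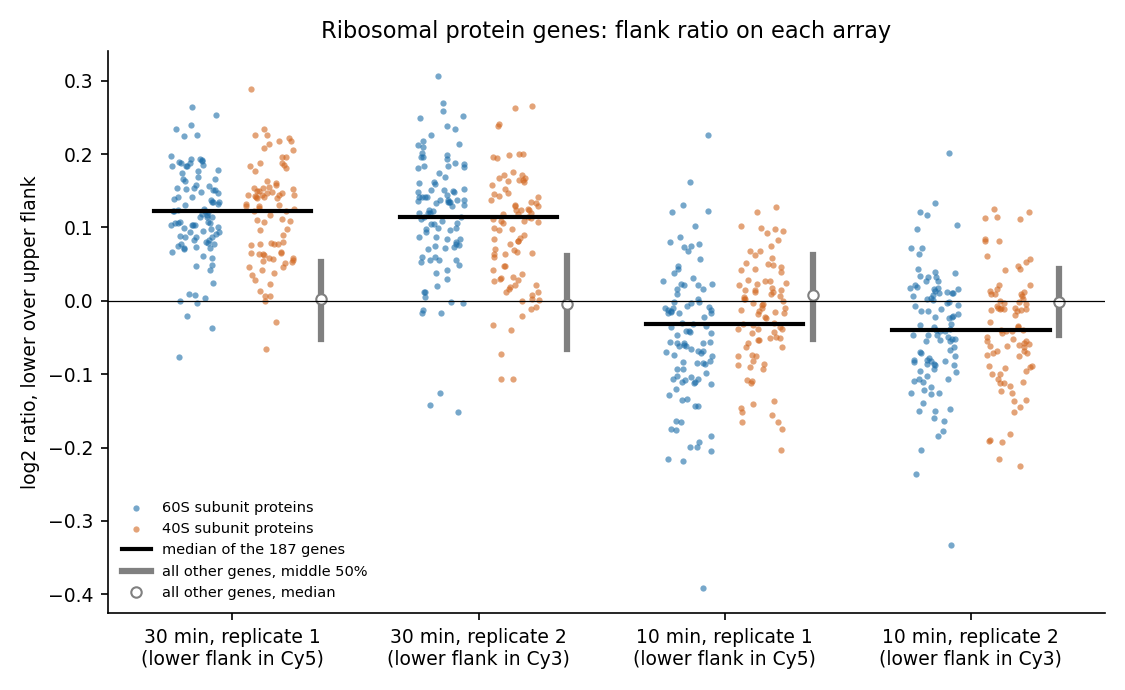
Log2 ratio of lower over upper flank (y axis) on each of the 4 arrays (x axis) for the 187 ribosomal protein genes with values on all arrays, each point 1 gene, with their median as a black line and the median and middle 50% of all other genes in grey. The medians of the ribosomal protein genes were 0.123 and 0.114 at 30 min, and -0.031 and -0.040 at 10 min.

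No ribosomal protein gene was called at 30 min in the fit without a dye term, in either direction, against 0.330% of all genes called higher and 0.198% called lower in the lower flank. At an unadjusted p under 0.05, 105 genes were higher and 0 lower. The shares of all genes at that unadjusted threshold are not given here. Even over all 4 arrays an exact sign test cannot go below a two-sided p of 0.125. Described by the arrays alone, 165 of 188 genes (87.8%) had both 30 min arrays above 0 and 2 genes had both below 0, against 25.2% and 24.2% of all genes.

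The spread in that fit holds any part of a gene's ratio that differs between the replicates in the same way at both times. A dye effect would differ so, but it cannot be told apart from other differences between the replicates. With the replicate number, which is the dye orientation, as a block in the fit, 181 of 204 genes at 30 min were called higher in the lower flank and 0 lower, against 17.9% and 16.6% of all genes. The median standard error of the ribosomal protein genes was 0.017 with the block and 0.042 without it. The block leaves 1 residual degree of freedom per gene, so these p-values rest mostly on a spread shared across genes. In this fit 101 of 111 genes of the large subunit and 80 of 93 genes of the small subunit were called higher. Of 71 families with at least 2 genes measured at 30 min, 55 had every measured paralog called higher, and each had at least 1.

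The genes with the smallest p at 30 min came from both subunits. RPL13aB (AT3G24830), a 60S protein, had flank ratios of 0.24 and 0.21 on the arrays of 30 min and -0.11 and -0.11 on those of 10 min. RPL7aB (AT3G62870), also of the 60S subunit, had 0.23 and 0.20 at 30 min, against -0.39 and -0.33 at 10 min. RPL18B (AT3G05590) had 0.17 and 0.19 at 30 min and -0.082 and -0.055 at 10 min. All 3 genes were thus higher in the lower flank on both 30 min arrays and lower there on both 10 min arrays. The fitted differences at 30 min were 0.23 ± 0.033 for RPL13aB (limma adjusted p = 0.0906), 0.22 ± 0.036 for RPL7aB (limma adjusted p = 0.112) and 0.18 ± 0.034 for RPL18B (limma adjusted p = 0.140). With the replicate block, the adjusted p of RPL13aB was 9.74e-05 in limma.

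In the small subunit, RPS18A (AT1G22780), the gene of the pointed first leaf mutant, had ratios of 0.19 and 0.24 at 30 min and of 0.012 and 0.053 at 10 min. It stayed above 0 on every array. RPS3B (AT3G53870), a paralog of the RPS3 protein at the entry of the messenger RNA channel, had 0.22 and 0.17 at 30 min, against -0.20 and -0.23 at 10 min. Fitted differences at 30 min were 0.21 ± 0.036 for RPS18A (limma adjusted p = 0.117) and 0.19 ± 0.035 for RPS3B (limma adjusted p = 0.132).

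Few genes lay below 0 at 30 min, and their values were small. AT2G42650, a related protein, had -0.048 ± 0.071, RPL37aB (AT3G10950) -0.030 ± 0.078, RPS27A (AT2G45710) -0.021 ± 0.054, AT5G63070 of the S15 family -0.015 ± 0.063 and RPS9B (AT5G15200) -0.014 ± 0.060, the last from 1 array. Their limma adjusted p-values were between 0.938 and 0.990. On the dye-swapped arrays the ratios of the 4 genes with both values had opposite signs: RPL37aB had 0.091 and -0.15, and RPS27A 0.066 and -0.11. Both are dim spots, with mean log2 signals of 6.49 and 7.22.

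Medians were also taken by brightness and by chromosome. The median ratio at 30 min was 0.114 for the 41 genes with a mean log2 signal of 8 to 10, 0.129 for the 74 genes from 10 to 12 and 0.121 for the 61 genes over 12, while all genes in these ranges had medians of -0.000072, -0.0052 and -0.0072. It was 0.053 for the 28 genes under 8, where all genes had -0.00027. On chromosomes 1 to 5 the medians were 0.124, 0.116, 0.124, 0.111 and 0.116, over 38, 39, 61, 22 and 44 genes. Large and small subunit had medians of 0.122 and 0.115. Over the 187 genes the ratios of the 30 min arrays correlated at r = -0.218, and those of the 10 min arrays at r = -0.042. These correlations are across genes of shared families and carry any difference between the replicates, such as a dye effect of each probe.

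Ratios at 10 min lay on the other side of 0. The median was -0.032 over 208 genes, against 0.0027 over all genes, and 42 of the 208 were above 0. On the arrays of 10 min the medians were -0.031 and -0.040 over the 187 genes, with 63 and 58 of them above 0. No gene was called in either direction in the fit without a dye term, as was true of all genes (0% higher and 0% lower). At an unadjusted p under 0.05, 2 were higher and 18 lower, and the shares of all genes at that threshold are not given here. By arrays, 88 of 203 genes (43.3%) had both 10 min arrays below 0 and 16 (7.88%) both above, against 20.7% and 22.4% of all genes. With the replicate block, 64 of 208 were called lower in the lower flank and 9 higher, against 11.5% and 11.9% of all genes.

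The 2 lowest ratios at 10 min belonged to RPL7aB, with -0.36 ± 0.036 (limma adjusted p = 0.391), and to RPL10B (AT1G26910), with -0.22 ± 0.035 (limma adjusted p = 0.555). RPL10 proteins sit near the peptidyl transferase centre of the large subunit. RPL10B had ratios of 0.18 and 0.14 on the 30 min arrays, against -0.20 and -0.24 on the 10 min arrays. RPS3B (-0.21 ± 0.035), RPL13B (AT3G49010, -0.19 ± 0.034) and RPL24A (AT2G36620, -0.17 ± 0.039) were each below 0 on both 10 min arrays and above 0 on both 30 min arrays. Above 0 at 10 min were RPS21B (AT3G53890) with 0.091 ± 0.034, RPL35D (AT5G02610) with 0.098 ± 0.037, RPS29B (AT3G44010) with 0.072 ± 0.034, RPS18C (AT4G09800) with 0.079 ± 0.043 and RPS15aD (AT3G46040) with 0.071 ± 0.044. None of these passed the fit without a block, where the limma adjusted p-values were 0.786 to 0.986, and all 5 were called higher with the replicate block.

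**Figure D2:**
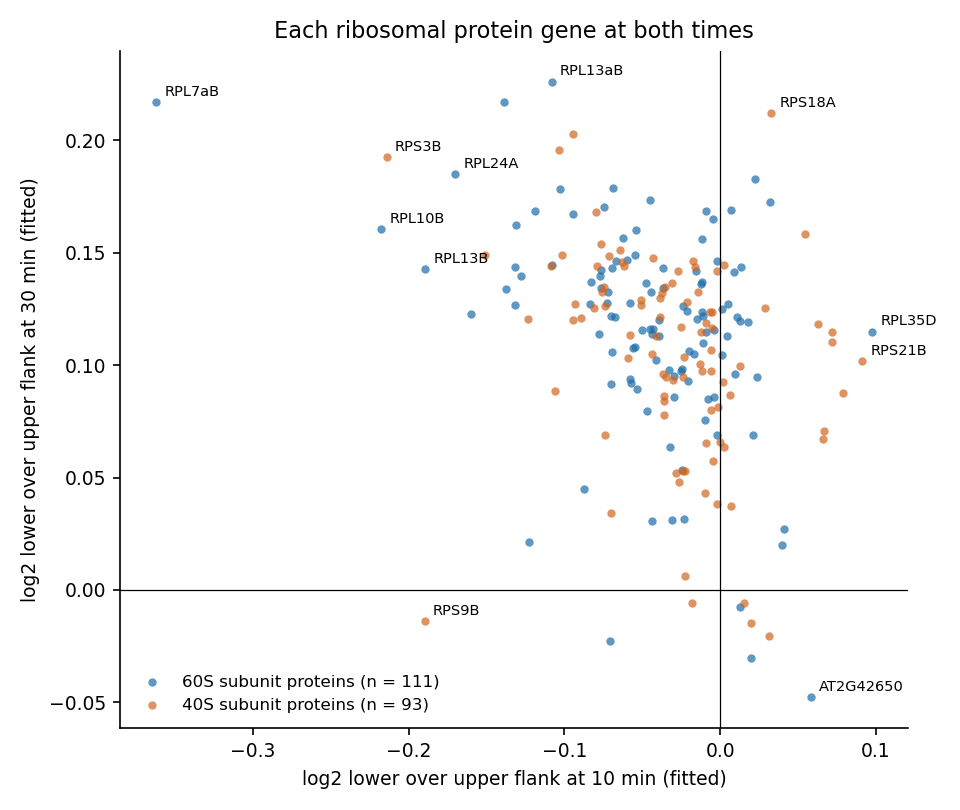
Fitted log2 ratio of lower over upper flank at 30 min (y axis) against that at 10 min (x axis) for 204 ribosomal protein genes, each point 1 gene, coloured by subunit. Most points lie above 0 at 30 min and below 0 at 10 min, with RPL7aB at 0.22 and -0.36.

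The change of the flank ratio, 30 min minus 10 min, had a median of 0.148 over 204 genes, and 196 were above 0, against a median of -0.0046 over all genes. In the fit without a dye term 0 genes were called in either direction, against 0.105% of all genes called higher and 0.0220% lower. At an unadjusted p under 0.05, 91 genes were higher and 0 lower, without the shares of all genes beside them. Both 30 min ratios were above both 10 min ratios in 136 of 187 genes (72.7%), and below them in 0, against 19.5% and 19.9% of all genes. The 5 genes with the smallest p were RPL7aB, with 0.58 ± 0.051 (limma adjusted p = 0.0594), RPS3B with 0.41 ± 0.050, RPL10B with 0.38 ± 0.050, RPL13aB with 0.33 ± 0.047 and RPL13B with 0.33 ± 0.048, and the limma adjusted p-values of the last 4 were 0.0949 to 0.124. With the replicate block, 170 of 204 genes were called higher at 30 min and 1 lower, against 19.0% of all genes in each direction. The 1 lower gene was AT2G42650, whose change was -0.11. AT2G45710, AT3G10950, RPL11D (AT5G45775) and RPS25E (AT4G39200) were also below 0, at -0.052, -0.050, -0.020 and -0.021.

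Genes known from mutants or from signalling were listed separately. Of 26 such genes tested, 24 of the 25 with a value at 30 min were above 0 in the lower flank, with a median of 0.137, and 24 of 26 were below 0 at 10 min, with a median of -0.061. With the replicate block 24 of 25 were called higher at 30 min, and 13 of 26 lower and 0 higher at 10 min, against 17.9% of all genes called higher at 30 min, and 11.5% lower and 11.9% higher at 10 min. RPS6A (AT4G31700) and RPS6B (AT5G10360) encode ribosomal protein S6, the target of S6 kinase below TOR. RPS6A had ratios of 0.15 and 0.24 at 30 min, against -0.17 and -0.042 at 10 min, and RPS6B had 0.11 and 0.18, against -0.11 and -0.050.

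RPL10A (AT1G14320), which acts in antiviral NIK1 signalling, had ratios of 0.15 and 0.11 at 30 min and of -0.11 and -0.15 at 10 min. RPL24B (AT3G53020), the SHORT VALVE1 gene of carpel patterning and translation reinitiation, had 0.19 and 0.093 at 30 min and 0.023 and -0.096 at 10 min. RPL4A (AT3G09630) and RPL4D (AT5G02870), whose mutants have altered auxin-related growth, had fitted ratios of 0.13 ± 0.033 and 0.12 ± 0.041 at 30 min and of -0.14 ± 0.033 and -0.16 ± 0.041 at 10 min. RPS13A (AT4G00100), of the pointed first leaf2 mutant, had 0.13 ± 0.034 and -0.074 ± 0.034 at 30 and 10 min. At the locus of the PIGGYBACK1 leaf polarity gene, RPL10aB (AT2G27530), the values were 0.15 ± 0.068 and -0.067 ± 0.068.

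Most remaining genes of that list lay in a narrow range. RPL10C, RPL3A, RPL3B, RPL8A, RPL23aA, RPL23aB, RPL27aC, RPL28A and RPSaA had fitted ratios of 0.11 to 0.16 at 30 min and of -0.13 to 0.0087 at 10 min. RPL5, which carries the 5S ribosomal RNA into the large subunit, had 0.11 ± 0.13 at AT3G25520 and 0.032 ± 0.038 at AT5G39740 (RPL5B) at 30 min. AT3G25520 had -0.076 and 0.31 on the dye-swapped arrays of 30 min, and -0.22 and 0.20 on those of 10 min. RPL19A (AT1G02780) was the gene of the list below 0 at 30 min, at -0.023 ± 0.13. Its value rested on replicate 2 alone, where the lower flank carried Cy3, and with the replicate block it was 0.14 ± 0.031 (limma adjusted p = 0.0154).

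Levels were also compared between the times, from the average signal of both flanks scaled between arrays. At 30 min the level of the ribosomal protein genes was higher than at 10 min, by a median of 0.167 (1.12-fold) over 204 genes, against 0.013 over all genes. Called higher were 15 of 204 genes (7.35%) and called lower were 0, against 3.02% and 4.81% of all genes. By arrays, 124 of 187 genes (66.3%) had both 30 min arrays above both 10 min arrays and 4 (2.14%) had both below, against 32.4% and 28.6% of all genes. Of the 15, 9 belonged to the large and 6 to the small subunit. That count fell to 4 with the deposited processed signals and to 7 with median scaling between arrays, and it was 4 and 8 without replicate 1 or 2 of 10 min, and 5 and 64 without replicate 1 or 2 of 30 min.

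RPL27A (AT2G32220), a 60S protein, had the largest difference. Its log2 signal in the lower flank was 9.55 and 9.37 at 30 min, against 8.34 and 8.49 at 10 min. In the upper flank it was 9.46 and 9.11 at 30 min and 8.38 and 8.39 at 10 min. Every 30 min value thus lay above every 10 min value, and the fitted difference in level was 0.97 ± 0.10 (limma adjusted p = 0.00679), a fold of 1.96. Its paralogs RPL27B (AT3G22230) and RPL27C (AT4G15000) had 0.33 and 0.24, and neither passed the test.

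RPS2D (AT3G57490), a paralog of the RPS2 protein near the decoding site of the small subunit, had 0.60 ± 0.099 (limma adjusted p = 0.0216). RPL3B (AT1G61580), a paralog of the RPL3 protein next to the peptidyl transferase centre, had 0.58 ± 0.071 (limma adjusted p = 0.0100). For RPS27aA (AT1G23410), which is made as a fusion with ubiquitin, the difference was 0.52 ± 0.085 (limma adjusted p = 0.0211). In all 3 genes both 30 min values lay above both 10 min values in each flank. RPL37C (AT3G16080), RPS9C (AT5G39850), the related protein AT3G58660 and RPS16A (AT2G09990) had differences of 0.45 to 0.47, with limma adjusted p-values of 0.0246 to 0.0457. RPL23aB had 0.41 ± 0.069 (limma adjusted p = 0.0230).

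**Figure D3:**
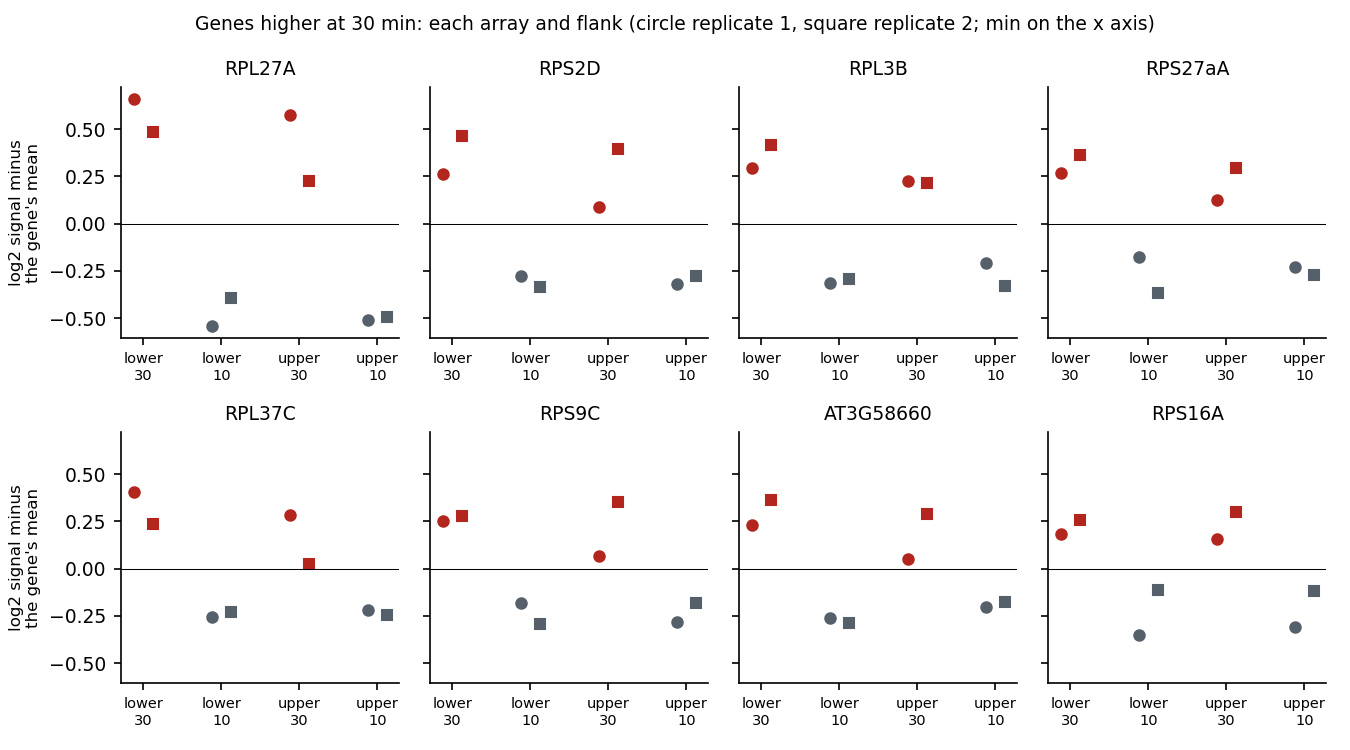
Log2 signal minus the gene's mean over all 8 values (y axis) for the 8 ribosomal protein genes with the largest called difference in level, in each flank at 30 and 10 min (x axis), circles for replicate 1 and squares for replicate 2. In every panel the values of 30 min lie above those of 10 min, with the widest gap in RPL27A.

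None of the genes that were lower at 30 min passed the test. RPL13aB had -0.24 ± 0.073 (limma adjusted p = 0.0998), and RPS14A (AT2G36160), RPL37aB, RPS2C (AT2G41840) and RPS18A had -0.16, -0.19, -0.15 and -0.12, with limma adjusted p-values of 0.248 to 0.473.

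Each flank was then compared between the times on its own. Relative to each gene's mean over the 4 arrays, the median of the 187 genes in the lower flank was 0.154 and 0.129 at 30 min, against -0.104 and -0.096 at 10 min. The fitted median was 0.238 (1.18-fold) over 204 genes and 190 were above 0, against a median of 0.014 over all genes. Called higher were 64 genes (31.4%), 41 of the large and 23 of the small subunit, and called lower were 0, against 6.52% and 7.68% of all genes. By arrays, 140 of 187 genes (74.9%) were separate and higher at 30 min and 3 (1.60%) separate and lower, against 32.0% and 27.7% of all genes. Calls numbered 31 when the normexp offset was 16, 9 with median centring in place of loess, 7 with the deposited processed signals and 7 with median scaling. The shares of all genes called under these settings are not given here. They numbered 10 and 23 without replicate 1 or 2 of 10 min, and 22 and 71 without replicate 1 or 2 of 30 min.

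The largest called differences in the lower flank were those of RPL27A, at 1.04 ± 0.10 (limma adjusted p = 5.68e-05), RPS2D at 0.67 ± 0.10, RPL3B at 0.66 ± 0.096, RPS27aA at 0.59 ± 0.10 and AT3G58660 at 0.57 ± 0.097, whose limma adjusted p-values were 0.000876 to 0.00281. RPL19B (AT3G16780), RPL37C and RPL14A (AT2G20450) had 0.57, 0.56 and 0.53, with limma adjusted p-values of 0.00304 to 0.0106, and RPL19B had only replicate 2 at 30 min. RPL14A had log2 signals of 10.80 and 10.64 in the lower flank at 30 min, against 10.15 and 10.23 at 10 min. RPL37aB, RPS27A (AT2G45710), RPS14A, RPS2A (AT1G58380) and the related protein AT3G18880 had values of -0.22, -0.18, -0.11, -0.13 and -0.15, with limma adjusted p-values of 0.243 to 0.583.

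In the upper flank the medians relative to each gene's mean were 0.042 and 0.015 at 30 min, against -0.070 and -0.046 at 10 min. The fitted median difference was 0.090 (1.06-fold), with 148 of 204 genes above 0, against 0.0092 over all genes. Called higher were 5 genes (2.45%), RPL27A, RPS2D, RPL3B, RPS27aA and RPS16A, and called lower was 1 (0.490%), RPL13aB, against 2.48% and 3.65% of all genes. Both 30 min arrays were above both 10 min arrays in 84 of 187 genes (44.9%) and below them in 16 (8.56%), against 28.8% and 26.3% of all genes. The upper-flank signals of RPL13aB were 11.49 and 11.58 at 30 min, against 11.97 and 11.92 at 10 min, a difference of -0.41 ± 0.091 (limma adjusted p = 0.0348). This call was lost with the offset of 16, the processed signals, median centring and median scaling, under which 0 genes were called lower, and the count of higher calls was 1 without replicate 1 and 3 without replicate 2 of 10 min, and 24 without replicate 2 of 30 min. In the lower flank its difference was -0.073 ± 0.094 and did not pass the test. RPS2C, RPL7aB, RPL24A and RPS14A had -0.30, -0.24, -0.30 and -0.21 in the upper flank, with limma adjusted p-values of 0.148 to 0.251. Whether a gene's change differed between the flanks is the test of the flank ratio at both times given above.

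**Figure D4:**
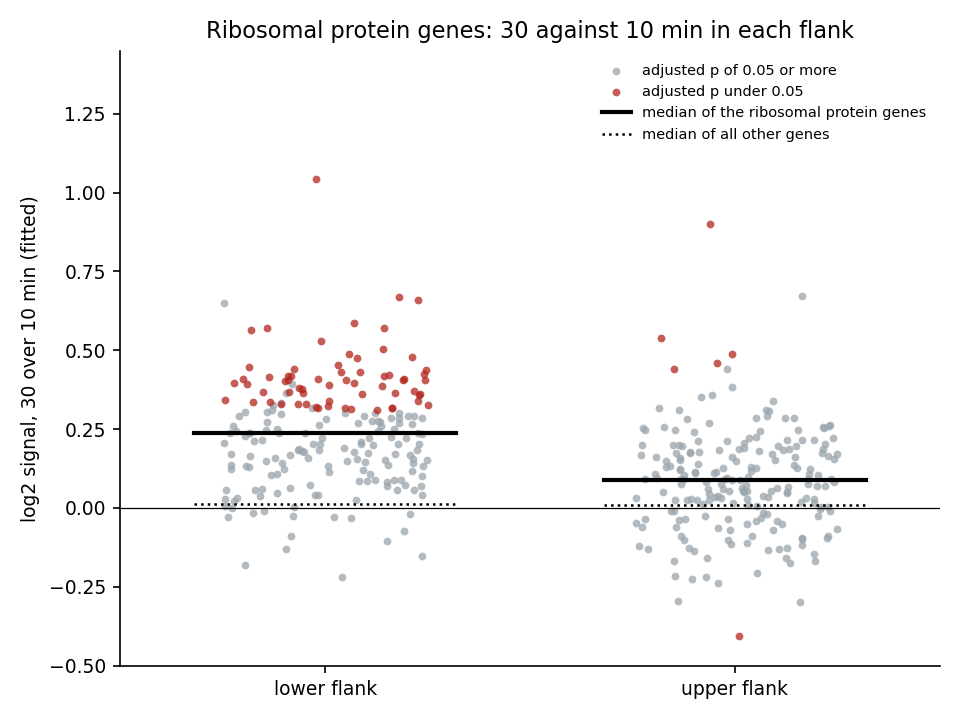
Fitted log2 difference of 30 over 10 min (y axis) for 204 ribosomal protein genes in the lower and the upper flank (x axis), each point 1 gene, red where the limma adjusted p was under 0.05, with the median of these genes (solid line) and of all other genes (dotted line). The medians were 0.238 in the lower flank and 0.090 in the upper flank.

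Families of paralogs were compared next. At 30 min every measured paralog was above 0 in 66 of 74 families, and in 0 families were all below 0. At 10 min all were below 0 in 44 families and above 0 in 5. The median distance between the highest and lowest paralog was 0.048 for the flank ratio at 30 min and 0.20 for the level over time. These counts and distances include families with only 1 measured paralog, whose distance is 0. They were L26, L28 and L38 at 30 min and in level, and L26 at 10 min. Among families, S2 spread most over time in the lower flank: RPS2D differed by 0.67, RPS2C by 0.0046 and RPS2A by -0.13. In the L13a family the lower-flank difference was 0.42 for RPL13aA (AT3G07110) and -0.073 for RPL13aB. The L11 family had 0.65 for RPL11D and 0.15 for RPL11C (AT4G18730), but the RPL11D signal in the lower flank was 9.19 on replicate 1 and 10.23 on replicate 2 of 10 min, and its difference did not pass the test (limma adjusted p = 0.083). Of the flank ratio at 10 min, L7a spread most, with -0.36 for RPL7aB and -0.13 for RPL7aA (AT2G47610).

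Other genes of the translation machinery were described for comparison. The 13 acidic stalk proteins, which recruit elongation factors to the large subunit and fall outside the rule, had median flank ratios of 0.098 at 30 min and 0.0098 at 10 min. Among them RPP3B (AT5G57290) had 0.24 ± 0.038 at 30 min. None of the 13 was called without a block. With the replicate block 10 were called higher and 0 lower at 30 min, and 0 higher and 4 lower at 10 min. All genes had 17.9% higher and 16.6% lower at 30 min in that fit, and 11.9% and 11.5% at 10 min. Of 29 tested genes of ribosome biogenesis, all 29 were above 0 at 30 min, with a median of 0.119, and 3 were above 0 at 10 min, with a median of -0.063. None was called in the flank fit without a block, and 23 were called higher at 30 min with the replicate block. In level, 14 of these 29 were called higher at 30 min and 0 lower, against 3.02% and 4.81% of all genes. The median of the 29 was 0.386. Called were SWA1 (AT2G47990), a nucleolar protein of ribosomal RNA processing, with 0.76 ± 0.10 (limma adjusted p = 0.0120), among others. Another was FIB2 (AT4G25630), a fibrillarin that methylates ribosomal RNA, with 0.71 ± 0.078 (limma adjusted p = 0.00698).

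Translation factors had a median flank ratio of 0.088 at 30 min, with 30 of 32 above 0, and of -0.077 at 10 min, with 4 of 32 above 0. EIF5A3 (AT1G69410), a factor that helps elongation, ran the other way, with -0.15 ± 0.040 at 30 min and 0.15 ± 0.040 at 10 min (limma adjusted p = 0.237 and 0.636). No translation factor was called in the flank fit without a block. In the blocked fit 21 of 32 were called higher and 2 lower at 30 min, and 1 higher and 19 lower at 10 min. All genes had 17.9% higher and 16.6% lower at 30 min, and 11.9% and 11.5% at 10 min. In level, 4 of 32 were called higher and 0 lower, against 3.02% and 4.81% of all genes. They were led by EEF1Ba1 (AT5G12110), a subunit of the exchange factor of elongation factor 1, with 0.82 ± 0.11 (limma adjusted p = 0.0113). Next was EEF1A2 (AT1G07920), which brings transfer RNAs to the ribosome, with 0.50 ± 0.096 (limma adjusted p = 0.0343). Ribosomal proteins of the organelles had smaller medians in the flank ratio at 30 min, 0.026 over 30 plastid and 0.048 over 12 mitochondrial genes. In the fit with the block, 10 plastid genes were called higher and 1 lower at 30 min. Of the mitochondrial genes 6 were called higher and 0 lower, and the shares of all genes were again 17.9% and 16.6%. The medians in level of the plastid and mitochondrial genes were -0.065 and 0.136. The plastid gene AT5G24490 was called lower in level, at -0.92 ± 0.086 (limma adjusted p = 0.00441). Differences between these lists and the cytosolic ribosomal proteins were not tested.

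Among 15 genes of growth control, 3 were called lower in level at 30 min and 1 higher, against 4.81% and 3.02% of all genes. DIN1 (AT4G35770), a gene induced by darkness and sugar depletion, had a level difference of -2.56 ± 0.079 (limma adjusted p = 0.000204) and ASN1 (AT3G47340), a starvation-induced asparagine synthetase, -1.79 ± 0.070 (limma adjusted p = 0.000324). The third was BZIP1 (AT5G49450), a transcription factor of energy deprivation. BZIP11 (AT4G34590), a transcription factor controlled by sucrose, was called higher, at 0.70 ± 0.088 (limma adjusted p = 0.0109). In the flank ratio at 30 min, EBP1 (AT3G51800), a regulator of ribosome assembly and growth, had 0.13 ± 0.036 (limma adjusted p = 0.261), and none of the 15 was called without a block. The blocked fit had 4 of them called higher (26.7%) and 2 lower (13.3%) at 30 min, near the 17.9% and 16.6% of all genes.

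**Figure D5:**
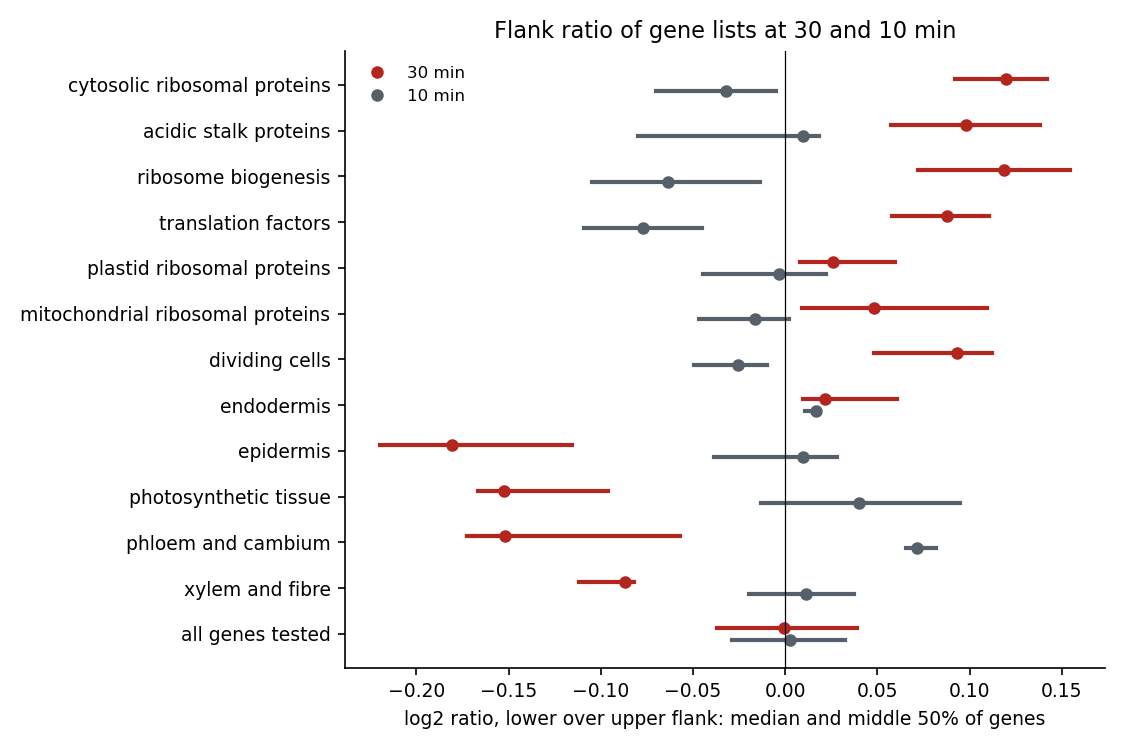
Log2 ratio of lower over upper flank (x axis) for gene lists (y axis) at 30 min in red and 10 min in grey, points for the median and lines for the middle 50% of each list's tested genes. Cytosolic ribosomal proteins had medians of 0.120 and -0.032, ribosome biogenesis 0.119 and -0.063, and epidermis markers -0.180 and 0.0097.

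Markers of cell types moved with the flank ratio. At 30 min 11 of 12 epidermis markers, 9 of 10 markers of photosynthetic tissue, 8 of 9 of phloem and cambium and 13 of 13 of xylem and fibre were below 0, with medians of -0.180, -0.153, -0.152 and -0.087, while 13 of 14 markers of dividing cells were above 0, with a median of 0.093. PP2-A1 (AT4G19840), a phloem lectin, was called lower at 30 min, at -0.36 ± 0.038 (limma adjusted p = 0.0451), and was the 1 marker called without a block. Under the replicate block 9 of 12 epidermis, 8 of 10 photosynthetic, 7 of 9 phloem and cambium and 11 of 13 xylem and fibre markers were called lower at 30 min and 0 higher. Of 14 markers of dividing cells 10 were called higher and 0 lower. In that fit 16.6% of all genes were called lower and 17.9% higher at 30 min. Of the 3 endodermis markers, 1 was called higher. At 10 min the medians of the same lists were 0.0097, 0.040, 0.071, 0.011 and -0.026. With the block at 10 min, 7 of 9 phloem and cambium markers were called higher and 0 lower. Photosynthetic markers had 3 higher and 1 lower, and xylem and fibre markers 2 higher and 1 lower. Epidermis markers had 0 higher and 2 lower, and those of dividing cells 0 higher and 3 lower. The shares of all genes at 10 min were 11.9% higher and 11.5% lower. Summed signals of 8 epidermis markers with all values were 13154 and 13696 in the lower flank at 30 min, against 14712 and 15770 in the upper flank. In the same way, 14 markers of dividing cells summed to 5424 and 5095 in the lower flank at 30 min and to 5050 and 4870 in the upper flank. The 187 ribosomal protein genes summed to 658709 and 642509 in the lower flank at 30 min, against 608516 and 587809 in the upper flank, and to 533386 and 541063, against 553031 and 549525, at 10 min. No marker list was near background: 1 phloem or cambium marker was not well above it on every array in the lower flank, and all others were. In such bulk samples fewer cells of a type and less RNA per cell cannot be told apart, and the part that the make-up of the hand-cut flanks has in these ratios was not tested.

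Marker levels were compared between the times as well, and calls came mainly from photosynthetic tissue. Of 10 markers of photosynthetic tissue, 5 were called lower at 30 min and 0 higher, against 4.81% and 3.02% of all genes. The median of the 10 was -0.329. The calls were led by LHCA4 (AT3G47470) with -0.52 ± 0.089 and LHCA1 (AT3G54890) with -0.51 ± 0.069. Both are antenna proteins of photosystem I (limma adjusted p = 0.0241 and 0.0130). The summed signal of 9 photosynthetic markers was 178042 and 181735 in the lower flank at 30 min, against 222029 and 224158 at 10 min. Markers of dividing cells had a median of -0.054 in level, with 0 called, and epidermis markers -0.074, with 0 called. Of 3 endodermis markers, PIN3 (AT1G70940), an auxin carrier, was called lower at 30 min, at -0.36 ± 0.076 (limma adjusted p = 0.0443), while SCR and SHR had 0.084 and 0.043. Of 9 phloem and cambium markers, SWEET12 (AT5G23660), a sucrose exporter, was called higher, at 0.38 ± 0.079 (limma adjusted p = 0.0410). Of 13 xylem and fibre markers 0 were called. The part of these changes in the ribosomal protein levels was not tested.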

How the data were processed

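The data were 4 Agilent 2-colour arrays of 22575 spots, quantified with Agilent Feature Extraction 8.1.1.1, per the file headers. The deposited intensity values used were mean spot brightness and median local background. Processed intensity values, deposited beside them, had background and dye bias removed by the software, per the file headers. The deposited log10 ratio sets processed Cy5 over processed Cy3. In the authors' series table the log10 ratio is lower over upper flank: its values lay within 0.00182 of the processed ratios for the ribosomal protein genes, which gives its scale and direction. Its column medians were 0, -0.00121, 0 and -0.00245 in the order replicate 1 and 2 of 10 min, then of 30 min. Deposited flags of 0 or 1 told which spots were well above background, saturated or outlying.

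In limma 3.58.1 (R 4.3.3) normexp with an offset of 50 removed background, ratios were normalized by loess with control spots at weight 0, and average signals by Aquantile. Tested were the 18286 genes whose probe exceeded background well in both replicates of any flank and time. The fits (lmFit, eBayes) of all arrays had a mean per time and no block, and Benjamini-Hochberg adjustment ran over all genes. The fits were tested on simulated data. Replicate numbers pair arrays of the same dye orientation, per the labels: deviations of same-numbered arrays correlated over genes at 0.867 for flank ratios, -0.274 for average signals, -0.129 for lower-flank and -0.091 for upper-flank signals. A fit with that block was therefore given beside the flank results. Alternatives tried were another offset, processed signals, median centring, other scalings, filters, probe averaging, separate-channel fits, fitting each time alone, and leaving out each array.

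Genes were named by rule: per comparison and direction, the 8 called genes with the largest difference, or the 5 with the smallest p where under 5 were called, then genes with known roles, other lists' leading genes, and families of largest spread. Members and lists were chosen with earlier results of these data known. Gene names are those of the array design (all 215 loci matched the RefSeq table). A few genes are not reported here. Sequences and promoters were not analysed here. The number of arrays limits the precision.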

Additional observations from a re-analysis of the deposited data

Results flagged for a closer look

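The median flank ratio of the ribosomal protein genes was above 0 on both 30 min arrays and below 0 on both 10 min arrays, a difference of 0.148. In 78 of 187 genes (41.7%) the ratio was above 0 on both 30 min arrays and below 0 on both 10 min arrays, and in 0 genes the reverse. Among 17567 other genes these shares were 9.27% and 9.68%.

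The 17 named genes with this pattern had the following differences, 30 min minus 10 min. In the large subunit they were 0.58 for RPL7aB, 0.38 for RPL10B, 0.36 for RPL24A, 0.33 for RPL13aB, 0.33 for RPL13B, 0.28 for RPL4D, 0.27 for RPL4A, 0.27 for RPL8A, 0.26 for RPL10A, 0.25 for RPL3A, 0.25 for RPL18B, 0.16 for RPL10C and 0.15 for RPL23aB. In the small subunit they were 0.41 for RPS3B, 0.30 for RPS6A, 0.22 for RPS6B and 0.20 for AT4G00100. The genes were picked by the signs of these same ratios, so their differences are a description. In the fits of the change given above, 0 of them were called without a block and all 17 with the replicate block. The pick by sign favours such calls, so they add no support. The difference of the median was not tested.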

How the results depend on the processing

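The members' medians kept their sign under every alternative run. Called genes varied more. Shares of all genes called are given only for the main fit and the replicate block, so other changes in count may not be particular to these genes. The replicate block gave 181 higher at 30 min, and 9 higher and 64 lower at 10 min. It gave 170 higher and 1 lower for the change of the flank ratio. In the upper flank over time it gave 8 higher (3.92%), against 4.59% of all genes. The median standard error in that fit was 0.127 both for these genes and for all genes, so its calls rest on a spread shared across genes. With the block RPL19A turned to 0.14 in the flank ratio at 30 min. With each time fitted alone, 5 genes were called higher at 30 min and 1 lower at 10 min. The crossed pairing of replicate numbers, chosen after seeing the data, gave 69 higher and 1 lower in level, 88 higher in the lower flank and 11 higher in the upper flank. An offset of 16 gave 31 higher in the lower flank, 0 lower in the upper flank and medians of 0.126, -0.038 and 0.155 (flank ratio at 30 min, at 10 min and its change). The deposited processed signals gave 4 higher in level, 7 in the lower flank, 1 higher and 0 lower in the upper flank, and medians of 0.126, -0.038 and 0.160, as did the series table. Median centring gave 9 higher in the lower flank, 3 higher and 0 lower in the upper flank, and medians of 0.166, 0.194 (change) and 0.263 (lower flank). Median scaling gave 7 higher in level, 7 in the lower flank, 2 higher and 0 lower in the upper flank, and medians of 0.193 in level and 0.276 in the lower flank. Without a filter the median change was 0.144. The cause of these differences was not tested.

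Leaving out each array in turn gave 0 to 5 higher and 0 lower calls at 30 min, 0 higher and 0 to 1 lower at 10 min, 2 to 8 higher and 0 lower for the change, 4 to 64 higher and 0 to 3 lower in level, 10 to 71 higher and 0 to 1 lower in the lower flank, and 1 to 24 higher and 0 to 6 lower in the upper flank. The medians ran from 0.118 to 0.122, -0.041 to -0.032, 0.145 to 0.155, 0.154 to 0.175, 0.235 to 0.255 and 0.077 to 0.101 in that order. Higher calls in level, lower flank and upper flank were 4, 10 and 1 without replicate 1 of 10 min, 8, 23 and 3 without replicate 2 of 10 min, 5, 22 and 5 without replicate 1 of 30 min, and 64, 71 and 24 without replicate 2 of 30 min. A lone array was then assumed to vary like the others. Of 499 values of called named genes under alternatives, 122 lost their call and 0 reversed. Having 2 arrays per time limits every p-value.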

Other observations

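Besides the 215 loci, 7 probes met the description but were not tested. Of these, 5 name several loci at once (2 of RPS2, 2 of RPL21 and 1 of RPL41) and 2 name no locus. Among the 215 loci themselves, 6 failed the filter on dim spots.

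With the replicate block, 23 of 204 ribosomal protein genes were not called in the flank ratio at 30 min. They included RPS16A and RPS16B of 3 tested S16 genes and RPL11C and RPL11D of 4 tested L11 genes, named after their values were seen, and their ratios ran from -0.048 to 0.091. At 10 min 9 of 208 genes (4.33%) were called higher with that block, a smaller share than the 11.9% of all genes. They were RPS15aD, RPS18C, RPS20A, RPS20C, RPS21B, RPS29A, RPS29B, RPL35D and AT2G42650, with ratios of 0.058 to 0.098.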
